A study of Mus musculus with 12 samples.

Results

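Heterotrimeric G proteins of the G12/13 class carry signals from cell-surface receptors to the actin cytoskeleton. Some, but not all, receptors for thrombin, sphingosine-1-phosphate and lysophosphatidic acid (LPA) activate the α subunits encoded by *Gna12* and *Gna13*. These subunits recruit guanine nucleotide exchange factors of the RhoGEF family. The RhoGEFs load the small GTPase RhoA with GTP, and RhoA in turn activates the kinases ROCK1 and ROCK2. In liver, these receptors are known from endothelial and stellate cells as well as from hepatocytes.

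The receptors and the RhoGEFs, the tiers above and below the G proteins, are the subject here: 10 genes chosen by gene symbol from the 45777 genes of the expression table, and all 10 were in it. They were 6 receptors (*F2r*, *F2rl1*, *S1pr1*, *S1pr2*, *Lpar1* and *Lpar6*) and 4 RhoGEFs (*Arhgef1*, *Arhgef11*, *Arhgef12* and *Akap13*). RNA had been sequenced from 12 whole livers of C57BL/6 mice, 3 in each of 4 groups. The groups were wild-type (WT) mice given vehicle, WT mice given acetaminophen (APAP), mice labelled Gα12-/- (written here as the KO label) given vehicle, and KO-label mice given APAP. APAP was injected intraperitoneally at 300 mg/kg after an overnight fast, and livers were taken 6 h later. The study's methods describe male mice and, for the KO mice, age-matched WT littermates, and the labels give an age of 10 to 12 weeks.

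*Gna12*, the gene named in the KO label, was not lower under that label. Its level in CPM (counts scaled to library size and between libraries by the TMM method) was 66.7, 34.8 and 63.4 in the 3 WT vehicle livers and 67.2, 66.7 and 54.7 in the 3 KO-label vehicle livers. After APAP it was 23.3, 58.8 and 50.5 in WT and 43.3, 48.1 and 46.6 under the KO label. The groups overlapped in both treatments, and the log2 difference between the KO label and WT was 0.19 (95% interval -0.37 to 0.75) with vehicle and 0.05 (-0.64 to 0.74) after APAP. A count over the whole gene does not show whether a single exon is missing, and where the deletion lies was not given in the sources used here. The study also describes PCR of tail DNA and quantitative RT-PCR of liver RNA for *Gna12* in KO mice and littermates. It further describes immunoblots of Gα12 protein in livers and primary hepatocytes of WT and KO mice. None of these were analysed here. Genotype is given below as labelled.

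The libraries held 49737950 to 69566079 counts. Hepatocyte markers were abundant in every liver, with *Alb* at 43080 to 99417 CPM, and the defining markers of sinusoidal endothelial cells, stellate cells and Kupffer cells were detected in all 12 livers. WT APAP liver 1 stood apart and held 17080 CPM of 5 erythroid genes against 251.7 to 749.2 CPM in the other 11 livers, 109.9 CPM of 5 neutrophil genes against 1.10 to 19.02 CPM, and 21.4 CPM of 5 platelet genes against 2.75 to 5.01 CPM. In the same liver the 7 stellate markers summed to 426.3 CPM against 177.5 to 287.4 CPM elsewhere. WT vehicle liver 2 was doubted as well: its neutrophil genes summed to 16.0 CPM against 1.16 and 1.90 CPM in the other WT vehicle livers. Counts over both labels are also given without these 2 livers.

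The promoters of *Arhgef12* and *Lpar6* are shown, picked after their values were seen: *Arhgef12* was the most abundant of the 10 transcripts, and *Lpar6* was the member that came nearest to the threshold in the comparisons below. The sequences are the RefSeq windows of build GRCm38.p6 from 250 bases before to 50 bases after the annotated start, written 5′ to 3′ along the gene's own strand, with CG dinucleotides in capitals. *Arhgef12* lies on the minus strand (window chr9:43105669-43105968) and *Lpar6* on the plus strand (window chr14:73237641-73237940).
Arhgef12: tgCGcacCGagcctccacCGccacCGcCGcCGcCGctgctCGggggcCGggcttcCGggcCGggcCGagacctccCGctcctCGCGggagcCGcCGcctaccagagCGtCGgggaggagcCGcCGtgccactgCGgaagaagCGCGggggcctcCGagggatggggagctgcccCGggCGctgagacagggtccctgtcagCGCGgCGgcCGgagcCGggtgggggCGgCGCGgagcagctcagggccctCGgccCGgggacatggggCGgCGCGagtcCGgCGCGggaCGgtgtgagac
Lpar6: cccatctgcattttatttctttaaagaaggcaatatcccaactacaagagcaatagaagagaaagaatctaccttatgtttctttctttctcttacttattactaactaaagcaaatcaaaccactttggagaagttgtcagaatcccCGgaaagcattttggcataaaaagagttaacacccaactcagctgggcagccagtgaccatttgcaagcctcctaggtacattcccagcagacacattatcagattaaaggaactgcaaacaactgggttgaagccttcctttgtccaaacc

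The *Arhgef12* window held 44 CG dinucleotides and 79.7% G or C. The *Lpar6* window held 1 and 40.0%. Over all 32851 promoter windows of the table the medians were 7 and 52.7%. Windows were found for 8 of the 10 genes, the missing entries being *F2rl1* and *S1pr1*. On either strand, the GC box GGGCGG was in a window of 7 of these 8 genes (35.7% of all windows) and not in that of *Lpar6*. The AP-1 motif TGANTCA was in the window of *F2r* (7.81% of all windows), and the cyclic AMP response element TGACGTCA in that of *S1pr2* (1.79%). The CCAAT box was in windows of *Akap13* and *Lpar1* (37.4%), and the TATA box TATAAA in none (13.6%). *Lpar1* and *Arhgef1* had several windows each, so a count per gene and a share per window are unlike measures. A match of letters describes the window and was not tested for use.

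Levels were compared between genes per length, as TPM (the deposited length-scaled share of transcripts) averaged over the 12 livers. *Arhgef12*, which encodes the RhoGEF known as LARG, came first at 26.9 ± 6.97 TPM (SD, n = 12) and exceeded the second gene, *Arhgef1*, in 12 of 12 livers. *Arhgef1* (p115-RhoGEF) stood at 18.4 ± 4.04 TPM and exceeded the third, *S1pr1*, in 10 of 12 livers. *S1pr1*, the sphingosine-1-phosphate receptor known chiefly from endothelium, stood at 12.7 ± 3.16 TPM. *Akap13*, a RhoGEF that also anchors protein kinase A, stood at 11.6 ± 4.03 TPM and could not be separated from *S1pr1*, which was higher in 7 of 12 livers. The thrombin receptor gene *F2r* (9.20 ± 2.58 TPM), *Arhgef11* (PDZ-RhoGEF, 8.81 ± 2.87 TPM) and the LPA receptor gene *Lpar6* (7.69 ± 1.62 TPM) followed, and each exceeded the next of these in only 7 of 12 livers. *Lpar6* exceeded *S1pr2* in 12 of 12 livers.

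The 3 remaining receptors were low. *S1pr2*, a sphingosine-1-phosphate receptor that couples to G12/13, stood at 1.91 ± 0.578 TPM, and *Lpar1*, the LPA receptor known from mesenchymal cells, at 0.323 ± 0.151 TPM. *F2rl1*, which encodes the protease-activated receptor PAR2, stood at 0.0872 ± 0.0774 TPM, with 0 to 29 counts a liver. A count of 0 in a library allows up to 3 counts, so the level of *F2rl1* was poorly resolved at this depth. RNA of whole liver cannot tell fewer cells of a type from less RNA per cell, and this holds for all levels given here.

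**Figure D1:**
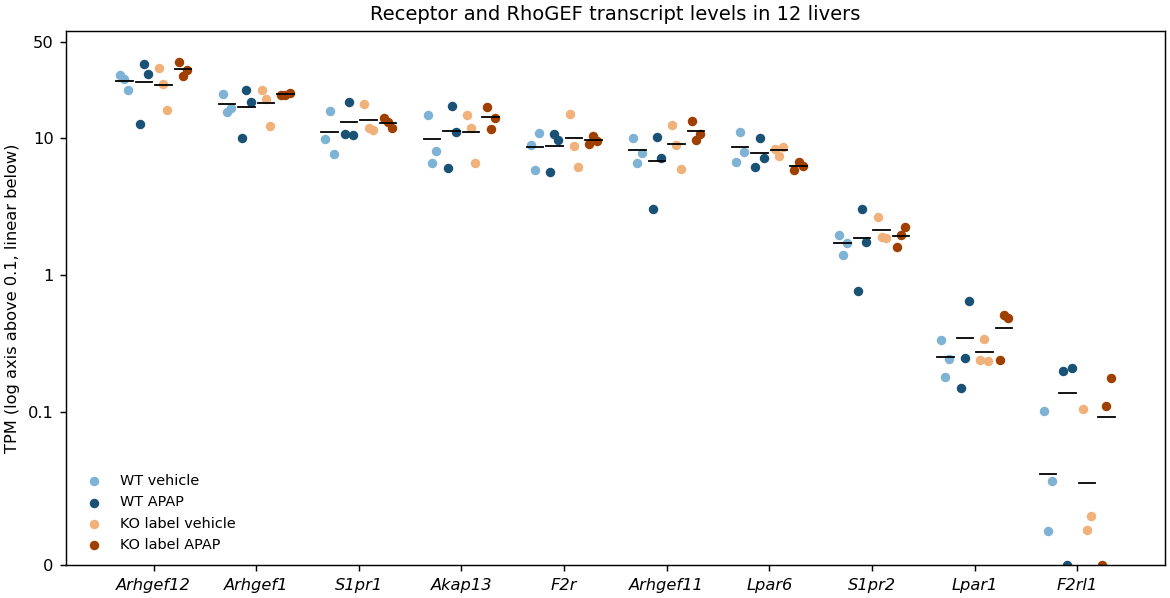
TPM of the 10 genes in each of 12 livers, ordered by mean, with a log axis above 0.1 TPM and a linear one below. Points are livers, colours are the 4 groups and bars are group means of 3 livers. *Arhgef12* lies highest and *F2rl1* lowest by mean. Livers spread from 0 to 0.211 TPM for *F2rl1* and from 3.05 to 13.4 TPM for *Arhgef11*.

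The first question was whether APAP changed the receptor and RhoGEF transcripts. With the genotype label as a covariate and 6 livers against 6, none of the 10 genes passed the threshold of 0.05 on the Benjamini-Hochberg adjusted p of edgeR's quasi-likelihood test. At an unadjusted p under 0.05 the number was also 0, and it was 0 with the Wald test of DESeq2. Over all 16112 genes tested, edgeR called 25.7% at the adjusted threshold and 37.4% at the unadjusted one, and DESeq2 called 2608 higher and 2297 lower. The median size of the log2 fold change, without its sign, was 0.10 over the 10 genes and 0.32 over all genes tested, and the signed medians were both 0.01. None of the 10 genes had all 6 treated livers on one side of the 6 vehicle livers, against 12.6% of all genes. Without the 2 doubted livers the number called was again 0 of 10, where 5569 of all 16318 genes tested were called.

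The same comparison within each label gave the same number. In WT mice 0 of 10 genes tested passed the adjusted threshold and 0 the unadjusted one, and DESeq2 called 0. The corresponding shares of all genes by edgeR were 2.05% and 18.0%, and DESeq2 called 877 higher and 536 lower of 15693 genes. Under the KO label 9 genes could be tested, since *F2rl1* fell below the count filter. By edgeR 0 passed the adjusted threshold and 1 (*Lpar6*) the unadjusted one, while DESeq2 called that gene. Of all genes 22.6% and 37.1% passed by edgeR, and DESeq2 called 4325 of 15665. Treated and vehicle livers were fully separated for 0 of 10 genes in WT (24.8% of all genes) and for 2 of 9, *S1pr1* and *Lpar6*, under the KO label (42.9%).

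**Figure D2:**
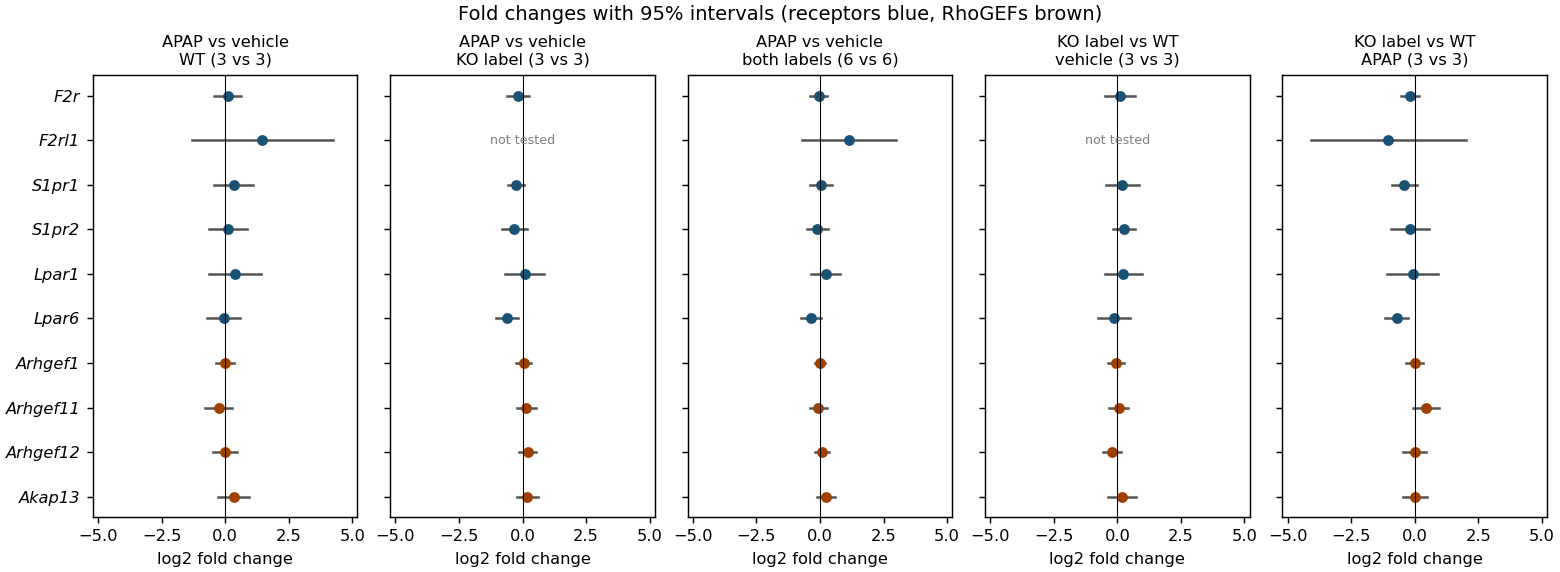
Log2 fold changes of the 10 genes (points) with their 95% intervals (bars) in 5 comparisons fitted by edgeR, receptors in blue and RhoGEFs in brown. Only the intervals of *Lpar6* in the KO-label and APAP panels leave out 0 without adjustment, and *F2rl1* has the widest interval wherever it could be tested.

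Among the protease-activated receptors, *F2r* encodes PAR1, which thrombin cleaves. It measured 17.3, 13.4 and 23.8 CPM in WT vehicle livers, 18.7, 19.4 and 19.6 CPM in WT livers given APAP, 25.4, 17.5 and 15.3 CPM in KO-label vehicle livers and 15.3, 18.6 and 17.1 CPM in KO-label APAP livers. The spread among vehicle livers was wider than any difference between treatments. APAP against vehicle over both labels gave a log2 fold change of -0.05 (95% interval -0.39 to 0.28). *F2rl1* had 2 to 9 counts in the vehicle livers and 0 to 29 in the APAP livers, with a log2 fold change of 1.13 whose interval ran from -0.72 to 2.98.

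Neither sphingosine-1-phosphate receptor of the set passed the threshold for APAP. *S1pr1* measured 17.3, 32.6 and 15.3 CPM in WT vehicle livers and 31.9, 29.8 and 19.4 CPM in WT APAP livers, which overlapped. Under the KO label it measured 27.2, 21.6 and 25.8 CPM with vehicle and 21.4, 21.5 and 18.95 CPM with APAP, where every treated liver lay below every vehicle liver, although the nearest pair was almost equal. The log2 fold changes were 0.33 ± 0.33 (SE, adjusted p = 0.631) in WT and -0.26 ± 0.13 (adjusted p = 0.198) under the KO label by edgeR, and their difference was not past the threshold (interaction -0.59, adjusted p = 0.876). The WT value of *S1pr1* depended on single livers, from 0.11 without WT vehicle liver 3 (adjusted p = 0.925) to 0.74 without WT vehicle liver 2 (adjusted p = 0.201), both by edgeR. The summed level of 10 endothelial markers was 279.9 to 292.1 CPM in KO-label vehicle livers and 215.5 to 282.3 CPM in KO-label APAP livers, which overlapped. Of these 10 markers edgeR called 1 higher and 2 lower for APAP under the KO label, where 22.6% of all genes were called. In WT the sum was 227.0 to 273.7 CPM with vehicle and 218.0 to 356.8 CPM with APAP. The part of endothelial markers in the *S1pr1* values was not tested. *S1pr2* ranged from 2.17 to 4.72 CPM over the 12 livers, with a log2 fold change of -0.11 (-0.52 to 0.30) over both labels.

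Of the LPA receptors, *Lpar1* ranged from 0.588 to 1.37 CPM over the 12 livers, 28 to 86 counts, and gave 0.23 (-0.34 to 0.79) on the log2 scale. *Lpar6*, an LPA receptor that signals through G12/13, was the member with the clearest separation. It measured 9.55, 18.9 and 12.9 CPM in WT vehicle livers and 15.0, 13.4 and 10.8 CPM in WT APAP livers. Under the KO label it measured 10.5, 11.02 and 15.9 CPM with vehicle and 7.23, 9.01 and 8.18 CPM with APAP. The 3 KO-label APAP livers were the lowest of all 12, and the other 3 groups overlapped one another.

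The *Lpar6* log2 fold change for APAP under the KO label was -0.61 ± 0.19 (SE), with an interval of -1.04 to -0.18 and an adjusted p of 0.0510 by edgeR's quasi-likelihood test. This lies just outside the threshold, and 4 other settings placed it just inside, with adjusted p from 0.0218 (DESeq2) to 0.139 over all settings tried. In WT the log2 fold change was -0.06 ± 0.27, and the difference between the labels was not past the threshold (interaction -0.55 ± 0.35, adjusted p = 0.876). In the GENCODE annotation the whole of *Lpar6*, 5400 bases, lies inside *Rb1* on the opposite strand. The RefSeq entry of *Lpar6* is shorter (chr14:73237891-73240358). The strand setting of the counting was not given, so reads of the pair may not be separated. *Rb1* itself had a log2 fold change of 0.08 (-0.52 to 0.68) in this comparison.

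**Figure D3:**
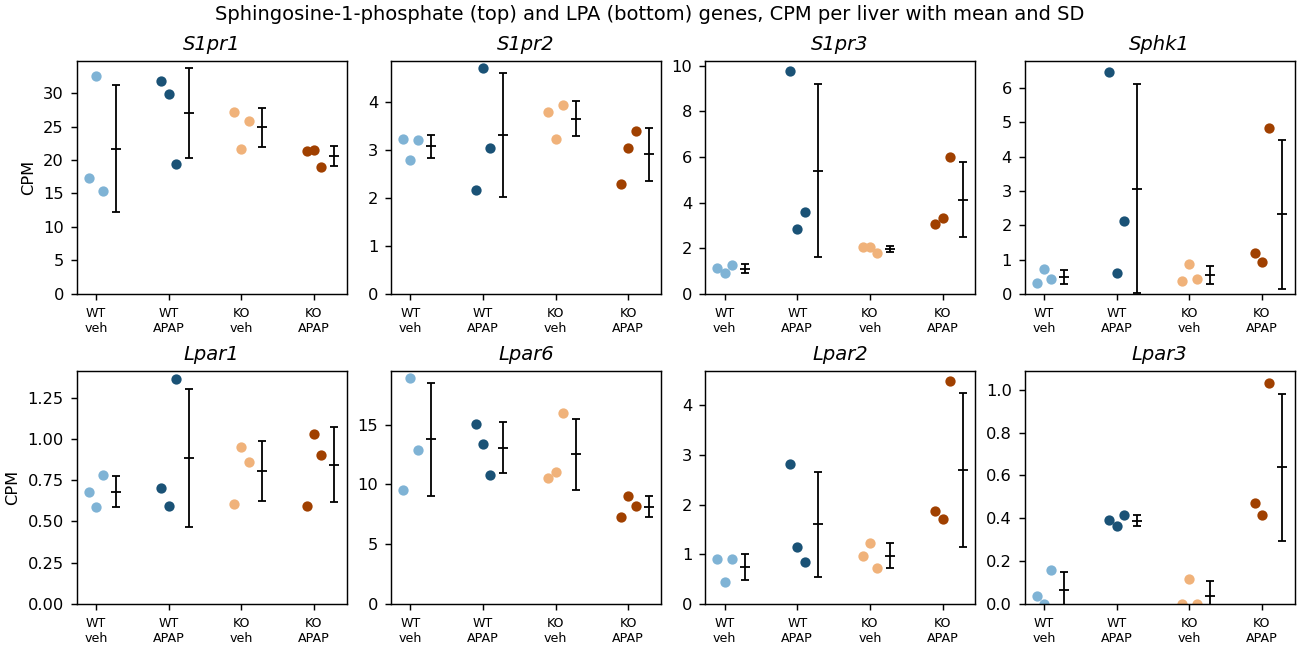
CPM per liver of sphingosine-1-phosphate genes (top row) and LPA receptor genes (bottom row) in the 4 groups; points are livers, and the bar beside each group is the mean with its SD (n = 3). *Lpar6* is lowest in the KO-label APAP livers, whereas *S1pr3*, *Sphk1*, *Lpar2* and *Lpar3* have their highest values in APAP livers.

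Of the 4 RhoGEFs, *Arhgef1* varied least, with an SD of 0.11 on the log2 CPM scale over the 12 livers, against 0.21 for *Arhgef12*, 0.30 for *Arhgef11* and 0.32 for *Akap13*. *Arhgef1* measured 40.6, 35.5 and 37.6 CPM in WT vehicle livers, 32.9, 40.3 and 37.5 CPM in WT livers given APAP, 38.9, 39.1 and 31.3 CPM in KO-label vehicle livers and 35.5, 38.0 and 38.2 CPM in KO-label APAP livers. All 4 groups overlapped. Its log2 fold change over both labels was -0.00, with an interval of -0.19 to 0.19, the narrowest of the 10 genes. A change of more than 1.14-fold in either direction therefore lay outside the interval.

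*Arhgef12* measured 169.6, 192.3 and 154.8 CPM in WT vehicle livers, 129.7, 194.9 and 182.2 CPM in WT livers given APAP, 167.1, 155.5 and 124.0 CPM in KO-label vehicle livers and 183.6, 156.8 and 168.8 CPM in KO-label APAP livers. WT APAP liver 1 and KO-label vehicle liver 3 were the lowest. The log2 fold change over both labels was 0.08 (-0.19 to 0.35). *Arhgef11* had its lowest value, 20.5 CPM, in WT APAP liver 1 and its highest, 45.9 CPM, in KO-label APAP liver 1, and gave -0.06 (-0.39 to 0.27). *Akap13* ranged from 54.8 to 113.6 CPM and gave 0.25 (-0.10 to 0.61).

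The second question was whether the labelled genotype altered these transcripts. With vehicle, 0 of 9 genes tested passed the adjusted threshold of edgeR and 0 the unadjusted one, and DESeq2 called 0. Of all genes 0.0262% and 7.56% passed by edgeR, and DESeq2 called 137 of 15262. After APAP, 0 of 10 passed the adjusted threshold of edgeR and 1 the unadjusted one, and DESeq2 called 0. Of all genes 0.0309% and 3.31% passed by edgeR, and DESeq2 called 29 of 16174. The 1 member past the unadjusted threshold was *Lpar6*. Its log2 fold change between the KO label and WT was -0.70 (-1.15 to -0.25), with an adjusted p of 0.958 by edgeR. *S1pr2* did not overlap between labels with vehicle (1 of 9 genes, 14.0% of all genes), nor did *F2r* and *Lpar6* after APAP (2 of 10 genes, 8.53% of all genes). The KO-label APAP livers enter both *Lpar6* comparisons, which therefore are not independent.

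*S1pr2* measured 3.23, 2.79 and 3.20 CPM in WT vehicle livers against 3.80, 3.23 and 3.94 CPM under the KO label, where the nearest pair was almost equal. The log2 difference was 0.25 (-0.19 to 0.69, adjusted p = 0.785 by edgeR). *Arhgef11* after APAP gave the largest difference among the RhoGEFs, 0.44 (-0.08 to 0.97, adjusted p = 0.958 by edgeR), and its WT group includes WT APAP liver 1. In the test of whether APAP acted differently under the 2 labels, 0 of 10 genes passed the adjusted threshold of edgeR and 0 the unadjusted one, and DESeq2 called 0. Over all 16509 genes, 0.00% were called by edgeR, 5.14% passed the unadjusted threshold and DESeq2 called 9 genes.

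Livers of a group differed from each other in a pattern that several members shared. Relative to the mean of its 3 livers on the log2 CPM scale, WT APAP liver 1 lay at -0.16 for *Arhgef1*, -0.47 for *Arhgef11*, -0.36 for *Arhgef12* and -0.29 for *Akap13*, and at -0.82 for *Gna12*. KO-label vehicle liver 3 was likewise the lowest of its group for all 4 RhoGEFs. *S1pr1* and *Lpar6* went the other way and were highest in WT APAP liver 1 and WT vehicle liver 2 within their groups. The longest annotated transcripts are 12597 nucleotides long for *Akap13*, 10752 for *Arhgef12* and 6776 for *Arhgef11*, and 3508 for *Arhgef1*.

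Median deviations by transcript length moved with this pattern. In WT APAP liver 1 the genes with the longest transcripts (at least 5156 nucleotides) had a median deviation of -0.29 and those with the shortest (at most 1791) one of 0.24. In WT APAP liver 2 the values were 0.22 and -0.19, and in KO-label vehicle liver 3 they were -0.11 and 0.12. Single genes did not all go with their length. *Gna12* (3416 nucleotides) lay at -0.82 in WT APAP liver 1 and *Gna13* (6160) at 0.13. *S1pr2* (6394) lay at -0.53 in WT APAP liver 1 but at 0.11 in KO-label vehicle liver 3. The part of this length shift in the RhoGEF values was not tested. *Lpar6* deviated upward in WT APAP liver 1. Its transcript is 5400 nucleotides long in the GENCODE annotation, the source of all lengths here. The RefSeq entry of *Lpar6* spans only chr14:73237891-73240358. The deposited genes carry RefSeq transcripts, so *Lpar6* as counted may not belong with the long ones.

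**Figure D4:**
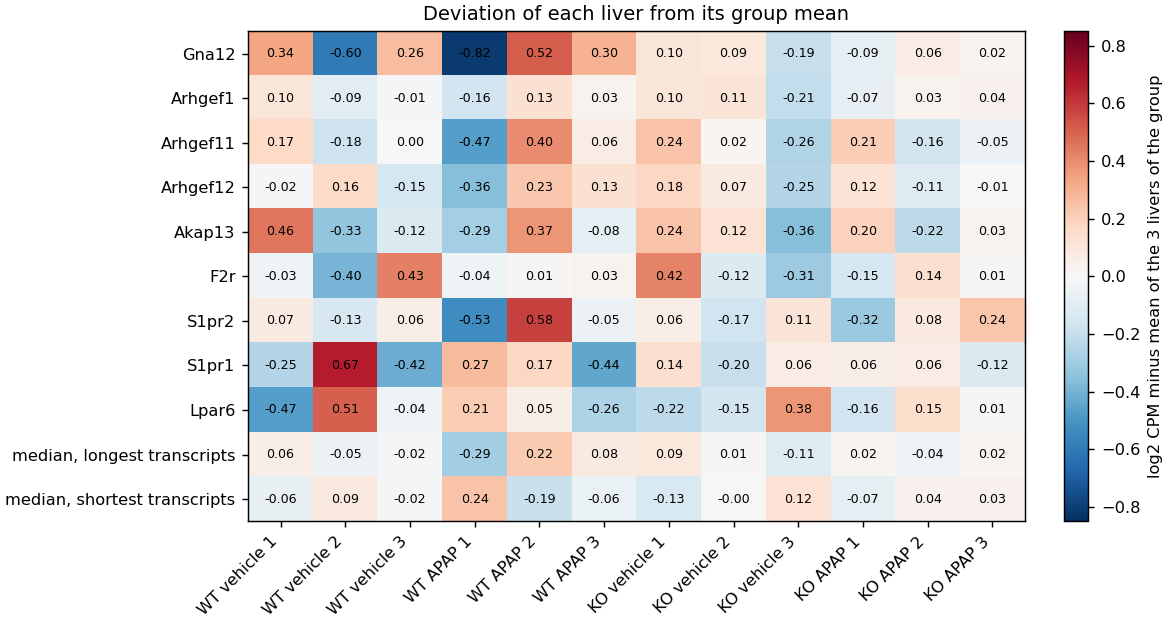
Deviation of each liver from the mean of its group, in log2 CPM, for *Gna12*, the RhoGEFs and 4 receptors, with the median of the genes with the longest (at least 5156 nucleotides) and the shortest (at most 1791) transcripts. Blue cells are low and red cells high; the RhoGEFs and the longest transcripts are low together in WT APAP liver 1 and in KO-label vehicle liver 3.

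For each member the nearest profiles over the 12 livers were sought among 10904 genes with a mean log2 CPM of at least 1. The distance was the root mean square difference of log2 CPM after centring each gene on its own mean. *Arhgef1* had the closest neighbours, *Ubp1* (0.0744) and *Clptm1* (0.0759), and those of *Arhgef12* were *Elf2* (0.0828) and *Cog1* (0.0886). *Arhgef11* was nearest to *Prr14l* (0.0883) and *Akap13* to *Rassf8* (0.142). Among the receptors *F2r* was nearest to *Lmnb1* (0.132), *S1pr2* to *Rsbn1l* (0.158), *S1pr1* to *Il18bp* (0.160), *Lpar6* to *Fuom* (0.175) and *Lpar1* to *Col20a1* (0.229). *F2rl1* had no near neighbour among these genes, the closest being *Cebpd* at 0.796. Both *F2rl1* and *Lpar1* lie below the level required of the genes searched, so genes at their own level were not compared. These distances are small where a gene varies little, and describe the livers' shared variation only.

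The rest of the pathway was read from 4 lists, again for APAP against vehicle over both labels. The lists held 4 called genes each, of 10, 14, 24 and 11 genes tested, where 25.7% of all genes were called, and whether any list differed from all genes was not tested. Of 10 other receptors tested, 3 rose and 1 fell. *S1pr3*, a further sphingosine-1-phosphate receptor, ranged in WT from 0.903 to 1.28 CPM with vehicle and from 2.85 to 9.77 CPM with APAP, and under the KO label from 1.81 to 2.05 CPM and from 3.04 to 6.02 CPM. Its groups did not overlap, and it rose by 1.67 on the log2 scale (adjusted p = 0.00398 by edgeR). The LPA receptor genes *Lpar3*, with 0 to 8 counts in vehicle livers and 20 to 72 in APAP livers, and *Lpar2*, with 21 to 63 and 53 to 312 counts, rose too. The thromboxane receptor gene *Tbxa2r* fell by 1.23 on the log2 scale. Highest of all for *S1pr3* was WT APAP liver 1, and without the 2 doubted livers it rose by 1.21 (adjusted p = 0.00120 by edgeR), while *Lpar2* gave 0.96 and an adjusted p of 0.0557.

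Of 14 genes of ligand supply and removal, 2 rose and 2 fell. *Sphk1*, the kinase that makes sphingosine-1-phosphate, rose by 2.36 on the log2 scale, with 0.320 to 0.857 CPM in vehicle livers and 0.605 to 6.47 CPM in APAP livers, which overlapped. *Plpp1*, a lipid phosphate phosphatase, rose by 0.83, and the coagulation factor genes *F7* and *F10* fell by 0.85 and 0.36. Of 24 other RhoGEF genes 4 rose (*Arhgef5*, *Plekhg2*, *Net1* and *Trio*, by 0.47 to 0.73 on the log2 scale) and 0 fell. Both counts stand beside 25.7% of all genes called in this comparison.

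Below the RhoGEFs, *Rock2*, one of the pair of kinases that RhoA activates, measured 21.8 to 30.9 CPM in the 6 vehicle livers and 51.0 to 85.2 CPM in the 6 APAP livers, which did not overlap. It rose by 1.36 on the log2 scale (adjusted p = 1.01e-05 by edgeR). *Myl12a*, a myosin light chain, rose by 1.46. *Rock1* gave 0.23 (0.05 to 0.41), with an adjusted p of 0.0588 by edgeR, and *Rhoa* gave 0.02 (-0.21 to 0.25). Of 11 RhoGAPs and inhibitors, 3 rose and 1 fell in the same comparison, where 25.7% of all genes were called. *Rock2* rose within WT (1.30, adjusted p = 0.0114) and under the KO label (1.43, adjusted p = 0.00227), both by edgeR.

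Of the G proteins between the tiers, *Gna13* rose by 0.26 on the log2 scale (adjusted p = 0.0453 by edgeR) over both labels, whereas *Gna12* gave -0.38 (-0.83 to 0.06). *Gna12* fell under the KO label (-0.44, adjusted p = 0.0387 by edgeR) and gave -0.31 (adjusted p = 0.699) in WT. The difference between the labels was -0.13 (adjusted p = 0.969), which was not past the threshold. The *Gna13* and *Gna12* values were not tested against each other. Without the 2 doubted livers, over both labels, *Gna13* gave 0.23 (adjusted p = 0.0775) and *Gna12* fell by 0.36 (adjusted p = 0.0111), and *Rock1* rose by 0.26 (adjusted p = 0.0357), all by edgeR. In the same 10 livers 2 other receptors rose and 3 fell, 2 ligand genes rose and 4 fell, 4 other RhoGEF genes rose and 3 fell, and 3 RhoGAPs and inhibitors rose and 2 fell.

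**Figure D5:**
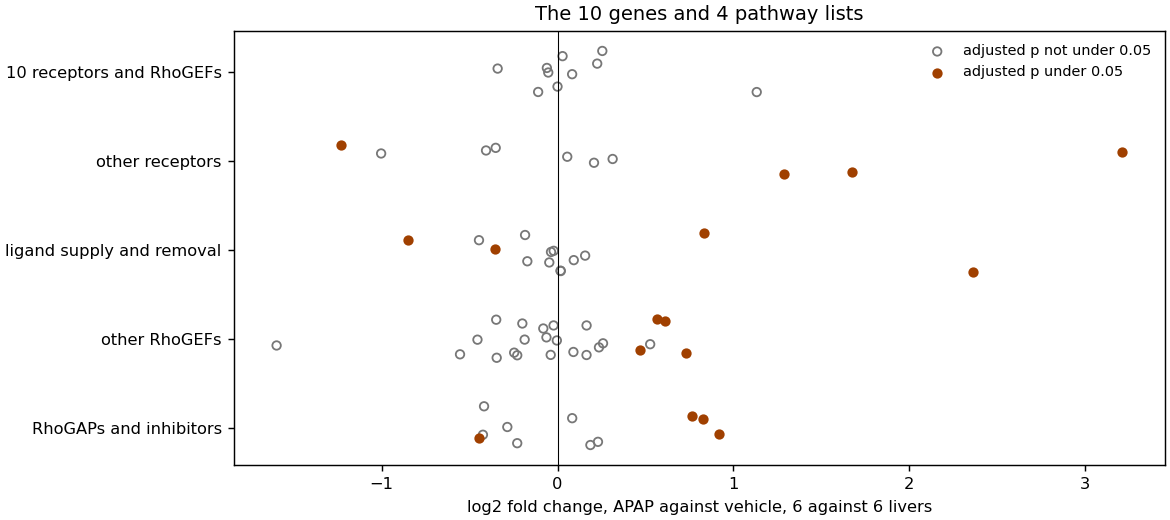
Log2 fold changes, APAP against vehicle over both labels (6 livers against 6), of the 10 genes and of the genes tested in 4 pathway lists; each point is a gene, and filled points passed the adjusted threshold. The 10 genes hold no filled point and all but *F2rl1* lie between -0.34 and 0.25. Each list holds 4 filled points, and 25.7% of all genes were called in this comparison.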

How the data were processed

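RNA from 12 mouse livers was sequenced in paired ends from stranded poly-A libraries. The submitters' processing notes name FastQC 0.11.7, Trimmomatic 0.38, HISAT2 2.1.0, Bowtie2 2.3.4.1, StringTie 2.1.3b and mm10 (GRCm38), with no role for each. The deposited read counts are whole numbers without normalization. Levels between genes rest on the deposited TPM, a share per library corrected for transcript length. The deposited FPKM values were not used. Unmapped value columns numbered 0.

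Counts were TMM-scaled and tested with edgeR 4.0.16 (quasi-likelihood, filterByExpr, R 4.3.3), and p-values were adjusted by Benjamini-Hochberg across every tested gene (threshold 0.05). The study's methods use log-transformed, quantile-normalized TPM, which was run as an alternative with limma 3.58.1 (pseudocounts of 1 and 0.1), as was DESeq2 1.42.0. Two-group comparisons used their 6 livers, and the others all 12. The scripts were tested on simulated data. Each library is a separate liver.

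The members and lists were chosen with earlier results of these data known. From each pathway list at most 4 genes past the threshold with the smallest p over both labels were named, with *Rhoa*, *Rock1*, *Rock2*, the G proteins, the nearest profiles, overlapping genes and defining markers. Floors of 3 counts and intervals cover counting error or spread between livers only. A further pathway list is not reported here.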

Additional observations from a re-analysis of the deposited data

How the results depend on the processing

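Over 95 alternative fits, 91 called none of the members. The other 4 each called 1, *Lpar6* for APAP against vehicle under the KO label: with DESeq2 size factors (adjusted p = 0.0480 by edgeR), with the DESeq2 Wald test (0.0218), with at least 10 counts in every liver (0.0489 by edgeR) and with limma on quantile-normalized log2(TPM + 1) (0.0412). Over all alternatives its adjusted p in that comparison ran from 0.0218 to 0.139 and its log2 fold change from -0.70 to -0.39. Of 916 values of a member in a comparison, 836 kept direction and side of the threshold, 76 changed sign without being called in either fit, and 0 called values changed sign. Leaving out each liver in turn (48 fits) gave 0 members called in each comparison. Over all genes, such fits called at least 1995 for APAP under the KO label and 3185 over both labels, but as few as 41 of 16338 in WT. For the label and the interaction they called at most 7 higher and 9 lower (of 15550), so a member could hardly have been called there.

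The count over all genes depended more on the setting. For WT it was 322, and 41 without WT vehicle liver 3 to 1523 with all 12 livers in one fit. Under the KO label it was 3538 (1995 without KO-label vehicle liver 2 to 4325 with DESeq2), over both labels 4142 (3185 without KO-label APAP liver 3 to 5569 without the 2 doubted livers, a setting chosen after seeing the data), for the label with vehicle 4 (0 to 137), for the label after APAP 5 (0 to 29), and for the interaction 0 (0 to 9). The cause was not tested.

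Equal replicate numbers did not pair the livers: over 16509 genes, 18 same-numbered pairs had correlations of -0.264 to 0.107, with 1 over 0.1, and 0 livers were closest to one of their own number. With the replicate block 0 members were called in all 6 comparisons. Over all genes, that setting called 0 for the label with vehicle, 1 after APAP and 0 for the interaction, which leaves little room for a member. For APAP it called 55 higher and 1 lower in WT, 1576 and 1127 under the KO label, and 1991 and 1541 over both labels. Depth limits *F2rl1* (0 to 29 counts) and *Lpar1* (28 to 86 counts).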
